A study of Mus musculus with 9 samples.

Results

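The circadian clock genes are the 10 genes of the core transcriptional feedback loop and its closest outputs that were read from a table of gene expression in mouse nasal mucosa: Arntl, Clock, Per1, Per2, Per3, Cry1, Cry2, Nr1d1, Nr1d2 and Dbp. They were chosen by symbol, each from the row whose Ensembl identifier carries it, and all 10 were found among 21930 identifiers. RNA was sequenced from wild-type nasal mucosal tissue in 3 groups of 3 libraries. Papain+MSC-Exos mice, a model labelled eCRS_Exo (eosinophilic chronic rhinosinusitis with exosomes), received 20 µg of the protease papain in 20 µl by the nose on days 0 to 2 and 7 to 11, and exosomes of mesenchymal stem cells (MSC-Exos), small secreted vesicles, on days 7 to 11. Papain mice, labelled eCRS, received the same papain without exosomes (the protocol names PBS as the alternative to them), and the control libraries are labelled as untreated; the tissue was taken on day 12. Strain, age, sex, what the controls received by the nose and the hour of day at which tissue was taken are not given by the labels, so an hour of collection that differed between groups and the treatment cannot be told apart. The labels do not say that libraries are separate mice, so p-values measure only the spread between these libraries.

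In the clock, the proteins of Arntl (BMAL1) and Clock bind E-box DNA together and switch on the Per, Cry, Nr1d and Dbp genes, and the PER and CRY proteins then silence that pair. The products of Nr1d1 and Nr1d2 (REV-ERB alpha and beta) repress Arntl through ROR elements, so that in most mouse tissues Arntl RNA peaks when Nr1d1 and Dbp RNA are low. DBP activates genes through D-boxes, among them Per genes. Nasal mucosa and its epithelia hold such a clock, as most peripheral tissues do.

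Short sites that carry the letters of these elements were looked for on both strands in RefSeq promoter windows (GRCm38.p6), from 250 bases before to 50 bases after each annotated start. Windows existed for 9 of the 10 genes, Per2 being the one without. Shown are some of the matches to the elements through which the feedback described above is known to run. The motif is in capitals, 5′ to 3′ on the strand of the gene.
Per1 E-box, chr11:69098771-69098800 (plus strand): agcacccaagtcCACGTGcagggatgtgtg
Cry1 E-box, chr10:85185097-85185126 (minus strand): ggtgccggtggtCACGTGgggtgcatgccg
Nr1d1 E'-box, chr11:98775388-98775417 (minus strand): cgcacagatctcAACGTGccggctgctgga
Cry2 E'-box, chr2:92434218-92434247 (minus strand): acacatggtgggAACGTGagggggcggagc
Per3 D-box, chr4:151044852-151044881 (minus strand): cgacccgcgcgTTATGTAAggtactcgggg
Per3 D-box, chr4:151044805-151044834 (minus strand): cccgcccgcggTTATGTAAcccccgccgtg
Arntl extended ROR element, chr7:113207529-113207558 (plus strand): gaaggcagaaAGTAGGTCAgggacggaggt
The E-box (CACGTG) stood in windows of 2 of the 9 genes and of 8.09% of all 27025 genes with a window. The E'-box (CACGTT, printed as its reverse complement) stood in 3 of the 9 genes and 5.44% of all genes. The E'-box match of Cry1 is not printed, and no E-box or E'-box match stood in the windows of Dbp and Nr1d2. The D-box (TTATGTAA) stood in 1 gene and 1.11% of all genes, and the extended ROR element (ANTAGGTCA, which contains the core AGGTCA) in 1 gene and 0.707% of all genes. The core alone was in 4 genes and 18.1% of all genes, and the cAMP element (TGACGTCA) in 0 genes and 2.03% of all genes. A match is a description of the letters in this window only.

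Levels are given as FPKM (fragment density along the transcript, corrected for the total of the library) after median-of-ratios scaling, which divides each library by the median over genes of its ratio to the geometric mean. The scaling matters here. The 15 most abundant genes took 38.2 to 64.3% of all FPKM in papain+MSC-Exos libraries, 64.7 to 77.8% in papain libraries and 77.0 to 78.6% in control libraries, and FPKM as deposited moves every other gene against that share. As deposited, the median of all genes tested lay at a log2 change of 0.56 for papain+MSC-Exos against papain, 0.19 for papain against control and 0.76 for papain+MSC-Exos against control. Both scales are therefore given below, and a change is called where limma on log2(FPKM + 1) gave a Benjamini-Hochberg adjusted p under 0.05 over all genes tested. Adding 1 before the logarithm draws the changes of genes of low FPKM toward 0, so sizes of change are not comparable between low and high genes. For Arntl in papain+MSC-Exos against control, a ratio of mean scaled FPKM of 1.51 stood beside a log2 change of 0.36. The depth of the libraries is unknown, because FPKM carries no read count.

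Dbp and Nr1d2 led the scaled levels in each group, and Arntl was the lowest of the 10 in each. In papain+MSC-Exos libraries the order was Nr1d2, Dbp, Cry2, Cry1, Per2, Per1, Per3, Clock, Nr1d1 and Arntl, and neighbours failed to overlap only after Cry2 and after Per1. In papain libraries it was Nr1d2, Dbp, Nr1d1, Cry2, Per2, Per1, Cry1, Per3, Clock and Arntl, with gaps after Dbp, Cry1 and Clock. In control libraries it was Dbp, Nr1d2, Nr1d1, Per1, Cry2, Per2, Per3, Cry1, Clock and Arntl, with gaps after Nr1d2, Per2 and Clock. Nr1d1 thus stood next to last with exosomes and was the third highest of the 10 in papain and in control libraries.

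**Figure D1:**
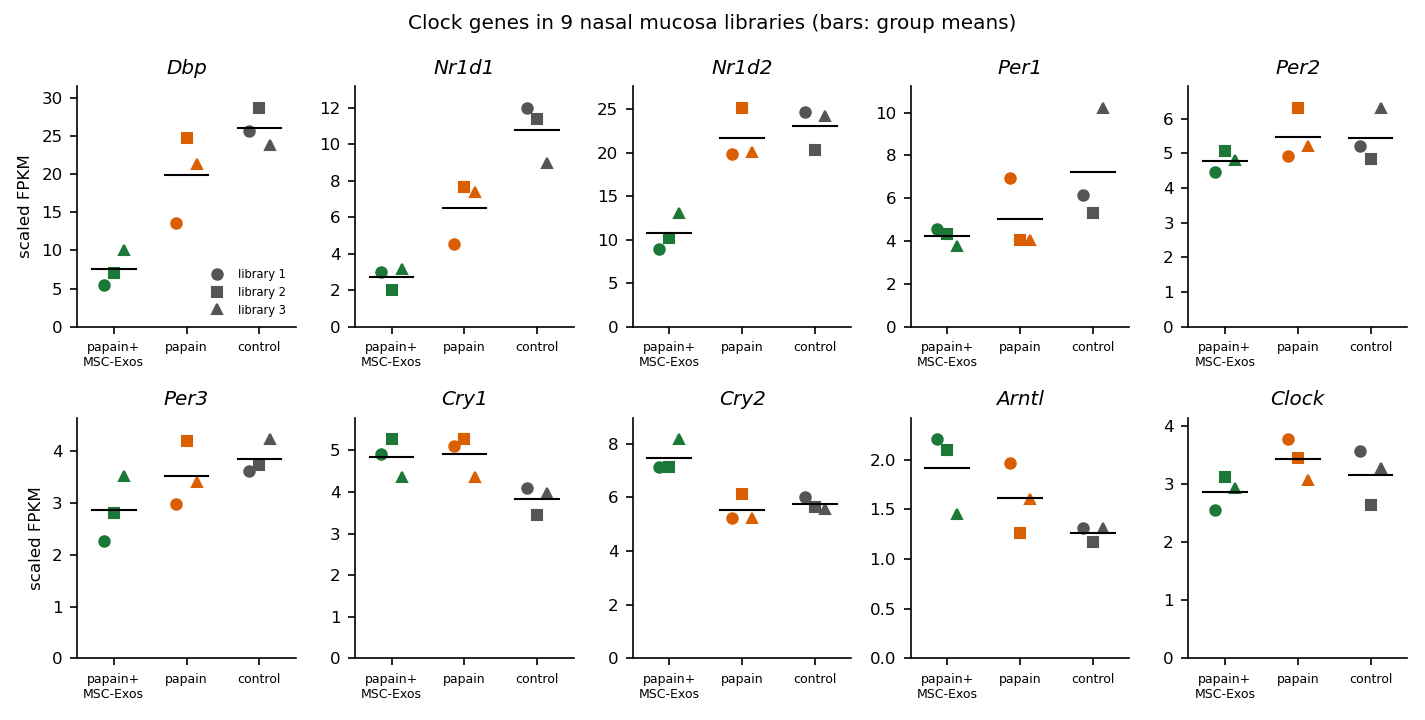
Scaled FPKM of each clock gene (vertical axis, from 0) in papain+MSC-Exos, papain and control libraries; symbols are libraries 1, 2 and 3, and bars are group means. Dbp, Nr1d1 and Nr1d2 are lowest in all 3 papain+MSC-Exos libraries, and Cry2 is highest there.

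With exosomes, the E-box targets Dbp, Nr1d1 and Nr1d2 were lower on scaled values than with papain alone, and lower than in controls. Dbp (chromosome 7, 45705088 to 45710203, plus strand, GRCm38) encodes the D-box activator. It stood at 5.46, 7.02 and 10.1 scaled FPKM in papain+MSC-Exos libraries 1, 2 and 3, at 13.6, 24.7 and 21.3 in papain libraries and at 25.7, 28.7 and 23.8 in control libraries. No papain+MSC-Exos library reached the lowest papain or control library. The means were 7.53 ± 2.37, 19.9 ± 5.67 and 26.1 ± 2.45 for papain+MSC-Exos, papain and control (SD, n = 3 each), and Dbp fell in papain+MSC-Exos against papain (limma log2 change -1.29 ± 0.23 SE, adjusted p = 0.00542) and against control (-1.70 ± 0.23, adjusted p = 0.00201). As deposited, the levels were 9.53, 11.2 and 11.9 FPKM with exosomes, 14.6, 17.5 and 20.7 with papain and 19.6, 21.9 and 18.2 in controls, and both falls remained past the threshold (-0.64, adjusted p = 0.00789, and -0.82, adjusted p = 0.000867). In TPM, where every library has the same total, both calls were lost (-0.29, adjusted p = 0.386, and -0.38, adjusted p = 0.245). Of all genes tested in TPM, 50 and 31 were called lower in these comparisons, and 10654 and 12776 higher. On scaled values papain alone gave -0.41 against control (adjusted p = 0.29), a difference within which papain library 2 overlapped the controls.

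Nr1d1 (chromosome 11, 98767932 to 98775333, minus strand) encodes the haem-binding repressor REV-ERB alpha. Its scaled FPKM was 2.98, 2.01 and 3.15 in papain+MSC-Exos libraries, 4.53, 7.65 and 7.39 in papain libraries and 12.0, 11.4 and 8.98 in control libraries. On scaled values the 3 groups did not overlap, and they were ordered from low with exosomes to high in controls. Nr1d1 fell in papain+MSC-Exos against papain (log2 change -1.0 ± 0.19, adjusted p = 0.00657) and against control (-1.67 ± 0.19, adjusted p = 0.00101), by limma. Papain against control gave -0.67 ± 0.19 with an adjusted p of 0.0539, and an adjusted p of 0.0496 when papain+MSC-Exos library 2 was left out of the shared estimate of spread. As deposited, the levels were 5.20, 3.21 and 3.71 FPKM with exosomes, 4.84, 5.43 and 7.18 with papain and 9.17, 8.70 and 6.87 in controls. The papain libraries then overlapped both other groups. On that scale the fall against control remained (-0.89, adjusted p = 0.000874), while that against papain was -0.44 (adjusted p = 0.0639). In TPM neither was called (-0.51, adjusted p = 0.125, against control and -0.13, adjusted p = 0.694, against papain).

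Nr1d2 (chromosome 14, 18204054 to 18239127, minus strand), for the related repressor REV-ERB beta, stood at 8.99, 10.2 and 13.1 scaled FPKM in papain+MSC-Exos libraries, at 19.8, 25.2 and 20.1 in papain libraries and at 24.7, 20.3 and 24.2 in control libraries. The papain+MSC-Exos libraries lay below all others, and the papain and control libraries overlapped. Nr1d2 fell with exosomes against papain (-0.95 ± 0.14, adjusted p = 0.00333) and against control (-1.04 ± 0.14, adjusted p = 0.00212). This call rests on the scaling: as deposited, the levels were 15.7, 16.3 and 15.4 FPKM with exosomes, 21.2, 17.9 and 19.5 with papain and 18.9, 15.5 and 18.5 in controls, with changes of -0.29 (adjusted p = 0.154) against papain and -0.14 (adjusted p = 0.436) against control. In TPM the changes turned to 0.08 and 0.31, and no clock gene was called lower. Over all genes tested in TPM, 50 were called lower and 10654 higher against papain, and 31 lower and 12776 higher against control.

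Dbp and Nr1d1 share exonic bases with genes on the opposite strand, and the strand setting of the quantification is not given in the sources used here, so reads in those bases are uncertain. Dbp shares 539 bases, 18.0% of its exonic length, with Sphk2, which encodes a sphingosine kinase. Nr1d1 shares 263 bases, 8.55%, with Thra, the thyroid hormone receptor gene. By limma on scaled values Thra rose in papain+MSC-Exos against papain (0.41, adjusted p = 0.0193) and Sphk2 had a change of 0.29 (adjusted p = 0.0691); against control Thra had a change of 0.16 (adjusted p = 0.275) and Sphk2 rose (0.53, adjusted p = 0.00848). These changes had the opposite sign to the falls of Dbp and Nr1d1. Whether reads in the shared bases affected the levels of Dbp and Nr1d1 was not tested.

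The Period genes, whose products hold back BMAL1 and CLOCK, were not past the threshold in any scaled comparison. Per1 (chromosome 11, 69095217 to 69109960, plus strand) stood at 4.56, 4.31 and 3.80 scaled FPKM in papain+MSC-Exos libraries, at 6.96, 4.05 and 4.07 in papain libraries and at 6.13, 5.33 and 10.2 in control libraries. Control library 3 stood apart at 10.2, and the exosome libraries lay below all 3 controls. The change was -0.61 against control (adjusted p = 0.0682) and -0.17 against papain (adjusted p = 0.589), and papain against control was -0.44 (adjusted p = 0.253). The comparison with control passed when control library 2 (adjusted p = 0.0475) or papain library 1 (adjusted p = 0.0361) was left out, and with only these 2 groups fitted (adjusted p = 0.0487).

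Per2 (chromosome 1, 91415982 to 91459324, minus strand) had 4.45, 5.06 and 4.81 scaled FPKM with exosomes, 4.92, 6.31 and 5.19 with papain and 5.20, 4.83 and 6.30 in controls, and all 3 groups overlapped. Per3 (chromosome 4, 151003652 to 151044665, minus strand) had 2.27, 2.81 and 3.52 with exosomes, 2.98, 4.19 and 3.40 with papain and 3.61, 3.72 and 4.23 in controls. The exosome libraries of Per3 lay below the controls and overlapped the papain libraries. The Per3 change of papain+MSC-Exos against control was -0.34 (adjusted p = 0.0839), and it passed without papain+MSC-Exos library 3 (adjusted p = 0.0293). Against papain the changes were -0.16 for Per2 (adjusted p = 0.289) and -0.23 for Per3 (adjusted p = 0.22), and as deposited Per2 rose (0.45, adjusted p = 0.0437). Against control, the values as deposited gave 0.66 for Per2 (adjusted p = 0.00411), 0.40 for Per3 (adjusted p = 0.0392) and 0.20 for Per1 (adjusted p = 0.479). All of these lay below the median of all genes on that scale.

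Cry2 (chromosome 2, 92403646 to 92434043, minus strand), a cryptochrome that represses BMAL1 and CLOCK, was the 1 clock gene that rose with exosomes on scaled values. It had 7.14, 7.13 and 8.16 scaled FPKM in papain+MSC-Exos libraries, 5.24, 6.14 and 5.21 in papain libraries and 6.02, 5.64 and 5.58 in control libraries. The exosome libraries lay above all others. Cry2 rose against papain (0.38 ± 0.08, adjusted p = 0.0113) and against control (0.33 ± 0.08, adjusted p = 0.02), the call against control being lost when control library 2 (adjusted p = 0.0529) or control library 3 (adjusted p = 0.0651) was left out. As deposited the changes were 1.01 (adjusted p = 0.000594) and 1.17 (adjusted p = 7.94e-05), and 295 bases (4.67% of its exonic length) are shared with an antisense transcript, D930015M05Rik.

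Cry1 (chromosome 10, 85131700 to 85185064, minus strand), the other cryptochrome, had 4.91, 5.26 and 4.36 scaled FPKM in papain+MSC-Exos libraries, 5.11, 5.26 and 4.35 in papain libraries and 4.09, 3.46 and 3.98 in control libraries. All papain and all exosome libraries lay above the controls, and the papain and exosome libraries overlapped. The change was 0.27 against control with exosomes (adjusted p = 0.0584, and 0.0381 without papain+MSC-Exos library 3) and 0.29 with papain alone (adjusted p = 0.0887). Against papain the exosome change was -0.02 (adjusted p = 0.918). As deposited, Cry1 rose with exosomes against papain (0.59, adjusted p = 0.0182) and against control (1.06, adjusted p = 0.000285). The medians of all genes were 0.56 and 0.76 on that scale.

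Arntl (chromosome 7, 113207465 to 113314126, plus strand), the activator that REV-ERB represses, had 2.21, 2.10 and 1.46 scaled FPKM in papain+MSC-Exos libraries, 1.97, 1.27 and 1.61 in papain libraries and 1.31, 1.18 and 1.31 in control libraries. Exosome libraries lay above the controls, and papain libraries overlapped both. The changes were 0.36 for exosomes against control (adjusted p = 0.0647), 0.16 against papain (adjusted p = 0.377) and 0.20 for papain against control (adjusted p = 0.371). The first passed when papain library 1 (adjusted p = 0.0499), papain library 2 (adjusted p = 0.0488) or papain+MSC-Exos library 3 (adjusted p = 0.0203) was left out. As deposited, Arntl rose with exosomes against papain (0.64, adjusted p = 0.0166) and against control (0.97, adjusted p = 0.000735), where the medians of all genes were 0.56 and 0.76.

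Clock (chromosome 5, 76209868 to 76304792, minus strand), the partner of BMAL1, had 2.54, 3.12 and 2.92 scaled FPKM with exosomes, 3.76, 3.44 and 3.07 with papain and 3.57, 2.63 and 3.27 in controls. The groups overlapped, and the changes were -0.20 against papain (adjusted p = 0.189), -0.10 against control (adjusted p = 0.494) and 0.09 for papain against control (adjusted p = 0.621). As deposited, Clock rose with exosomes against control (0.63, adjusted p = 0.00697), which lay below the median of 0.76 of all genes on that scale.

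Read against all genes, 3 of the 10 clock genes fell and 1 rose in papain+MSC-Exos against papain on scaled values, where 16.2% of 12507 genes tested were called lower and 13.4% higher. Against control 3 fell and 1 rose, where 15.6% were called lower and 12.3% higher. In papain against control 0 of 10 were called by limma, with 2 at an unadjusted p under 0.05 (Nr1d1 and Cry1) beside 3208 of the 12507 genes. In that comparison 4.15% of genes were called lower and 5.77% higher. As deposited, 1 fell and 4 rose in papain+MSC-Exos against papain (0.73% of all genes lower, 63.0% higher), 2 fell and 6 rose against control (0.526% lower, 84.3% higher) and 0 were called in papain against control (0.518% lower, 3.01% higher). The median change of the 10 genes was -0.19, -0.07 and -0.25 on scaled values, for exosomes against papain, papain against control and exosomes against control, beside -0.0059, -0.0040 and 0.0092 for all genes. The comparisons share libraries, so their values are not independent of each other.

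**Figure D2:**
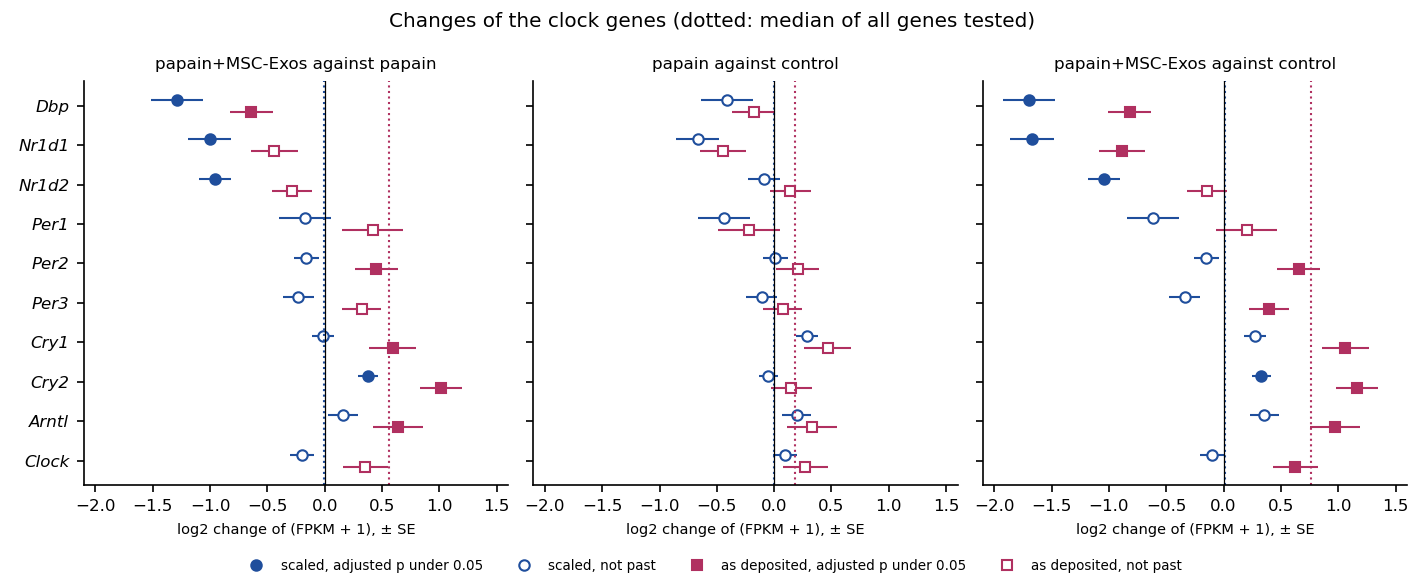
Log2 change ± SE (limma) of each clock gene in papain+MSC-Exos against papain, papain against control and papain+MSC-Exos against control; circles are scaled values, squares values as deposited, filled where the adjusted p is under 0.05, and dotted lines mark the median of all genes. Dbp lies left of 0 on both scales in the outer panels, while Nr1d2 is called on scaled values alone.

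A ratio of a pair of genes within a library does not depend on how libraries are scaled. The log2 ratio of Dbp over Arntl was 1.31, 1.74 and 2.80 in papain+MSC-Exos libraries, 2.79, 4.29 and 3.73 in papain libraries and 4.29, 4.61 and 4.18 in control libraries. The exosome libraries lay below the controls, and exosome library 3 met papain library 1. Nr1d1 over Arntl was 0.43, -0.06 and 1.11 with exosomes, 1.21, 2.59 and 2.20 with papain and 3.19, 3.28 and 2.77 in controls, and the 3 groups did not overlap. Per1 over Arntl was 1.05, 1.04 and 1.38 with exosomes, 1.82, 1.68 and 1.34 with papain and 2.23, 2.18 and 2.96 in controls. Per2 over Cry1 was -0.14, -0.06 and 0.14 with exosomes, -0.05, 0.26 and 0.26 with papain and 0.35, 0.48 and 0.66 in controls. In both of these, controls lay above all other libraries, while exosome and papain libraries overlapped. Ratios were not tested, since the pairs were chosen with results of these data known.

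**Figure D3:**
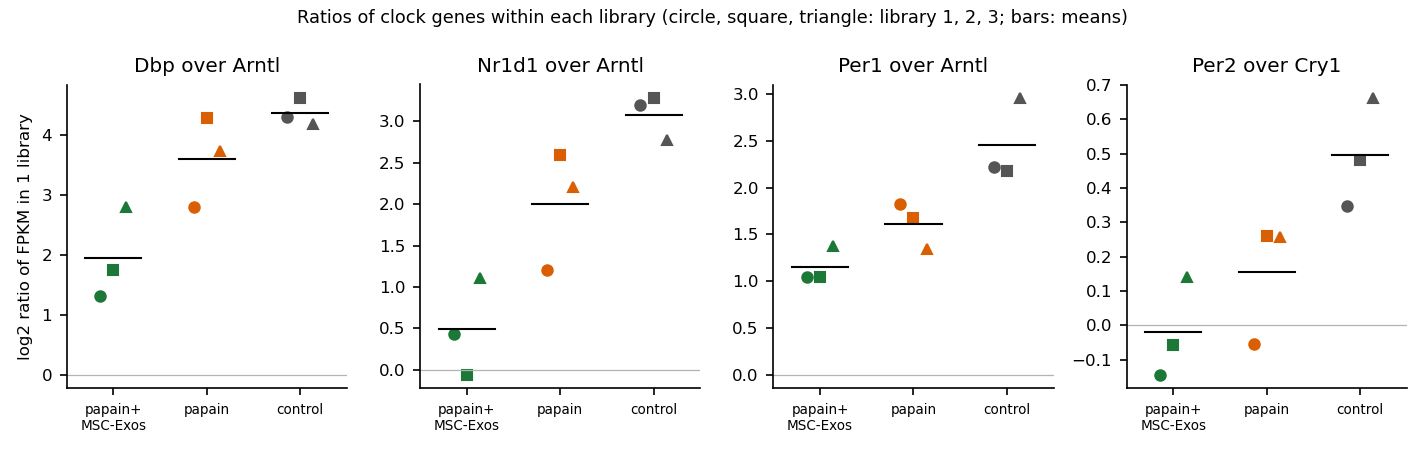
Log2 ratio of FPKM within each library for Dbp, Nr1d1 and Per1 over Arntl and for Per2 over Cry1; symbols are libraries 1, 2 and 3 of papain+MSC-Exos, papain and control, and bars are means. Controls are highest in each panel apart from papain library 2 in Dbp over Arntl, which lies among them.

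Markers of the cells in the tissue also differed between groups. Summed scaled FPKM of 8 nasal gland markers was 49466, 60513 and 124467 in papain+MSC-Exos libraries, 134756, 258163 and 157765 in papain libraries and 281491, 259838 and 294934 in control libraries, and no marker was at 0 in a group. Among these markers 7 fell and 1, the lysozyme gene Lyz2, rose with exosomes against control, 3 fell against papain and 1 fell in papain against control. In the same order, 15.6%, 16.2% and 4.15% of all genes tested were lower, and 12.3% were higher in the first. As deposited 6, 3 and 2 fell and 1 rose in each. There 0.526%, 0.73% and 0.518% of all genes were lower and 84.3%, 63.0% and 3.01% higher. On scaled values, within the papain libraries and within the exosome libraries, the order of Dbp followed that of the gland sum, and Arntl ran in the opposite order. In the control libraries both orders were the reverse of this, with Dbp opposite to the gland sum and Arntl along with it. As deposited, Dbp was highest in papain library 3 (20.7 FPKM). Obp1a, the most abundant gland marker, was then highest in papain library 2 (85933), as were Bpifb9a, Bpifb9b and Mup4. The other gland markers were highest in papain library 3, so the order of Dbp in papain libraries depends on the scaling. The part of gland content in the clock genes was not tested, and in bulk tissue fewer cells of a type and less RNA per cell cannot be told apart. Summed markers of endothelium were 5.08 to 6.21 with exosomes, 7.23 to 8.42 with papain and 8.05 to 8.82 in controls. Of 4 tested, 1 fell with exosomes against papain and 1 against control, beside 16.2% and 15.6% of all genes. As deposited 5 were tested and 0 fell, with medians of 0.24 and 0.23, and 2 rose against control (84.3% of all genes higher). Olfactory neuron markers rose in 9 of 10 with exosomes against papain, where 13.4% of all genes were higher. In papain against control 6 fell, where 4.15% of all genes were lower, though none did as deposited (0.518% of all genes lower). Among the markers of the labelled tissue, sustentacular genes summed to 3342 to 3641 scaled FPKM with exosomes, 3548 to 4099 with papain and 3777 to 4028 in controls. Cyp2a5 weighed most in these sums, with means of 1417, 1926 and 1908 in the same order. Of 6 sustentacular markers tested, 2 rose and 0 fell with exosomes against papain (13.4% of all genes higher). Against control 1 rose and 0 fell (12.3% higher), and in papain against control 0 rose and 1 fell (4.15% lower). As deposited 4 rose with exosomes against papain and 6 against control (63.0% and 84.3% higher). Eosinophil markers summed to 1.45 to 1.88 with exosomes, 5.09 to 13.4 with papain and 0.876 to 1.53 in controls, and only 1 of these 7 markers passed the filter on low values. Ear2 made up most of the papain sums (7.36, 11.9 and 3.79), while Siglecf averaged 0.359 with exosomes, 0.227 with papain and 0.0244 in controls. Other lists moved too. With exosomes against control 5 of 6 macrophage markers rose and 1 fell (12.3% of all genes higher, 15.6% lower). In papain against control 3 of 4 neutrophil markers rose (5.77% higher). With exosomes against papain 3 of 5 fibroblast markers fell (16.2% lower), though 0 did as deposited (0.73% lower).

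Partners and regulators of the clock were listed apart from the 10 genes. Of 24 listed, 20 were tested on scaled values: 4 fell and 2 rose in papain+MSC-Exos against papain, 3 fell and 2 rose in papain against control, and 3 fell and 5 rose in papain+MSC-Exos against control, with medians of -0.04, 0.05 and -0.13. Over all genes the shares lower and higher were 16.2% and 13.4%, 4.15% and 5.77%, and 15.6% and 12.3% in the same order of comparisons. As deposited 21 were tested, and 13, 1 and 17 rose while 1, 0 and 1 fell, where 63.0%, 3.01% and 84.3% of all genes were higher. Ciart (CHRONO, a repressor of BMAL1 and CLOCK and an E-box target) had 0.616, 0.678 and 0.663 scaled FPKM with exosomes, 1.39, 1.83 and 2.16 with papain and 3.32, 3.18 and 3.34 in controls. The 3 groups did not overlap. By limma the change was -0.75 in papain+MSC-Exos against papain, -0.63 (adjusted p = 0.00607) in papain against control and -1.37 in papain+MSC-Exos against control. As deposited these were -0.40, -0.43 (adjusted p = 0.204) and -0.83, and in TPM -0.22, -0.40 (adjusted p = 0.673) and -0.62. Ciart lay under 1 scaled FPKM in every papain+MSC-Exos library and passed the filter on low values only through the papain and control libraries. Its changes with exosomes, counted among the falls above, are therefore given no p.

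Bhlhe40 (DEC1, an E-box repressor) fell with exosomes against papain (-0.73, adjusted p = 0.00399), a change that was -0.07 as deposited and 0.29 in TPM. Bhlhe41 (DEC2) fell with exosomes against control (-0.64, adjusted p = 0.00422), a change that was -0.03 as deposited and 0.32 in TPM. Tef, a D-box activator related to Dbp, fell in papain against control (-0.40, adjusted p = 0.0436), and the call was lost in 6 of 9 fits that left out 1 library, those without control library 1, 2 or 3, papain library 1 or 3, or papain+MSC-Exos library 2 (adjusted p up to 0.138), and also as deposited (-0.17, adjusted p = 0.642).

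**Figure D4:**
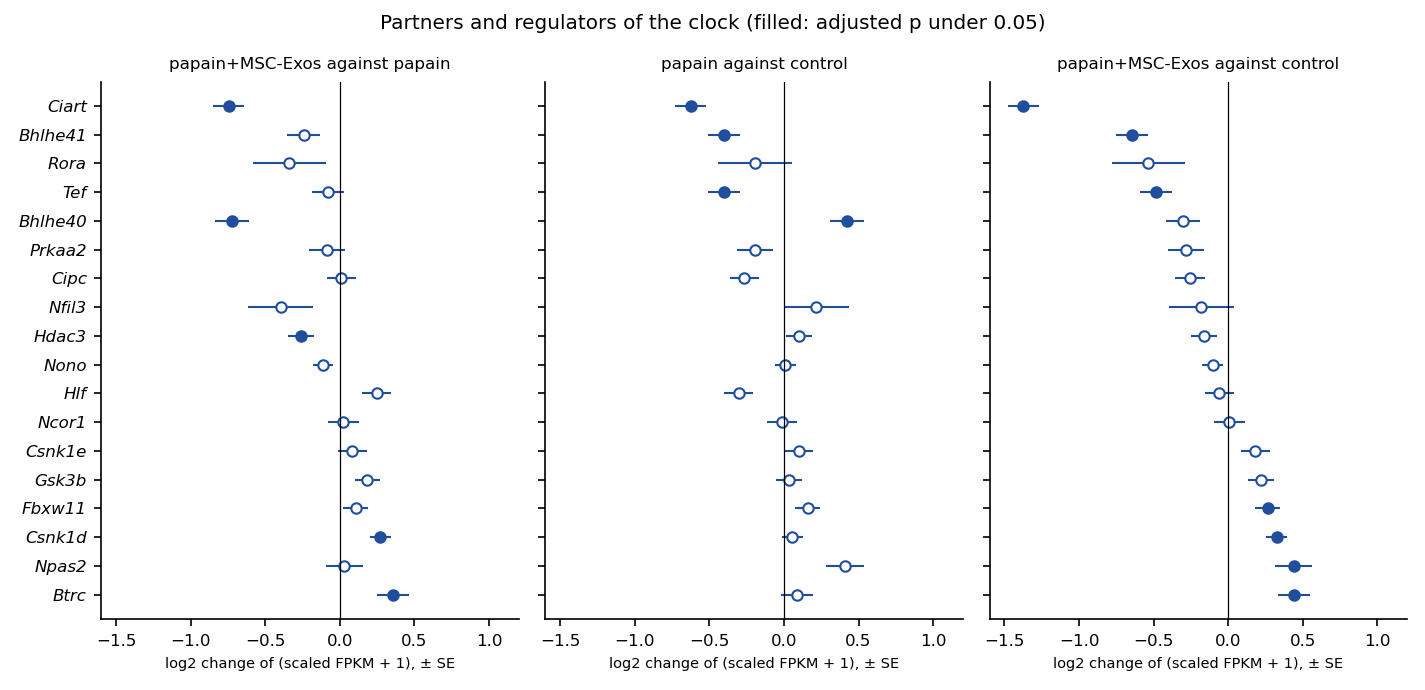
Log2 change ± SE (limma, scaled values) of tested partners and regulators of the clock in papain+MSC-Exos against papain, papain against control and papain+MSC-Exos against control, filled where the adjusted p is under 0.05. Ciart is the only one filled and left of 0 in all 3 panels, though it lay under 1 scaled FPKM in every papain+MSC-Exos library.

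Genes that follow the clock in many mouse tissues were also listed. Of 20 rhythmic output genes 17 were tested: 6 fell and 3 rose in papain+MSC-Exos against papain, 1 fell and 1 rose in papain against control, and 6 fell and 1 rose in papain+MSC-Exos against control, with medians of -0.29, 0.0043 and -0.20. The shares of all genes lower and higher were 16.2% and 13.4%, 4.15% and 5.77%, and 15.6% and 12.3%. As deposited 5, 1 and 10 of them rose and 0 fell in each, beside 63.0%, 3.01% and 84.3% of all genes higher. Coq10b, of the coenzyme Q pathway, fell with exosomes against papain (-0.97, adjusted p = 0.000662) and against control (-1.13, adjusted p = 0.000173), though in TPM the changes were 0.0038 and 0.17. Gpcpd1, a phosphodiesterase of phospholipid metabolism, fell against control (-0.76, adjusted p = 0.000854), and turned to 0.16 as deposited. Herpud1, a gene of endoplasmic reticulum protein control, likewise fell against control (-0.73, adjusted p = 0.00387) and turned to 0.22 as deposited. Fmo2, a flavin monooxygenase, rose against papain with exosomes (0.59, adjusted p = 0.00337) and fell in papain against control (-0.53, adjusted p = 0.00607), a call lost as deposited (-0.30, adjusted p = 0.436) and in TPM (-0.22, adjusted p = 0.777). Klf10, a transcription factor, rose in papain against control (0.53, adjusted p = 0.0281) and lost the call in the fits that left out control library 2, control library 3, papain library 2 or papain library 3.

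Glucocorticoid and cAMP signals set the hour of peripheral clocks and induce Per1 on their own, so their target genes were read beside it. Of 17 glucocorticoid targets 14 were tested: 6 fell and 1 rose with exosomes against papain, 0 fell and 2 rose with papain against control, and 2 fell and 1 rose with exosomes against control, with medians of -0.40, 0.11 and -0.20. Beside these stand 16.2% of all genes lower and 13.4% higher, then 4.15% and 5.77%, then 15.6% and 12.3%. As deposited 5, 2 and 11 rose and 0 fell in each, where 63.0%, 3.01% and 84.3% of all genes were higher. Cdkn1a, Klf9, Pdk4 and Tsc22d3 stand in both this list and the output list. Tsc22d3 (GILZ) was highest in control library 3 (30.2 scaled FPKM, against 15.9 and 14.2 in control libraries 1 and 2), the library in which Per1 was highest too. Other targets on the list were split. Among controls, Mt1, Mt2, Cebpd, Errfi1 and Sult1a1 were also highest in library 3. Dusp1, Fkbp5, Sgk1, Klf9 and Ddit4 were highest in library 1, and Dusp1 was lowest in library 3. A link of these genes to Per1 was not tested. Klf9, a glucocorticoid-induced transcription factor, fell with exosomes against papain (-0.64, adjusted p = 0.00354) and against control (-0.55, adjusted p = 0.00505), turning to 0.35 and 0.75 in TPM. Pdk4, which holds back pyruvate oxidation, had changes of -0.57 and -0.44 in the same comparisons, turning to 0.055 and 0.42 in TPM. It lay under 1 scaled FPKM in every papain+MSC-Exos library and passed the filter on low values only through the other groups. Its calls, counted among the falls above, are therefore given no p. Mt2, a metallothionein, rose in papain against control (0.69, adjusted p = 0.00909) and fell with exosomes against papain (-0.64, adjusted p = 0.0072), the fall turning to 0.07 as deposited. Cebpd, an inflammatory transcription factor, rose in papain against control (1.04, adjusted p = 0.0141) and lost the call without control library 2 (adjusted p = 0.0571), and Cdkn1a, a cell cycle inhibitor, rose with exosomes against control (0.73, adjusted p = 0.00583).

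Of 17 cAMP and immediate early genes 15 were tested: 9 fell and 0 rose with exosomes against papain, 0 fell and 2 rose with papain against control, and 1 fell and 0 rose with exosomes against control, with medians of -0.72, 0.35 and -0.30. All genes gave 16.2% lower and 13.4% higher, 4.15% and 5.77%, and 15.6% and 12.3%. As deposited 14 were tested, and 2, 1 and 6 rose and 0 fell, with 63.0%, 3.01% and 84.3% of all genes higher. Nr4a3, an orphan nuclear receptor, stood at 0.277, 0.108 and 0.174 scaled FPKM with exosomes, at 2.61, 1.14 and 1.79 with papain and at 0.524, 0.496 and 0.36 in controls. The papain libraries were the highest and did not overlap the others. Nr4a3 reached 1 scaled FPKM in the papain libraries alone and so passed the filter on low values only through them, which is why its calls, among the 9 that fell and the 2 that rose above, are given no p here. Junb, an AP-1 subunit, fell with exosomes against papain (-1.08, adjusted p = 0.00715; -0.41 as deposited, adjusted p = 0.199), and rose with papain against control (0.88, adjusted p = 0.0281), the rise lost in the fits that left out control library 2, control library 3, papain library 1 or papain library 3. Ier3, an early response gene, fell with exosomes against papain (-0.85, adjusted p = 0.0189), lost without papain library 3 or papain+MSC-Exos library 2, and turned to 0.18 in TPM. Crem, the cAMP-responsive modulator, fell with exosomes against control (-1.01, adjusted p = 0.0156), lost without control library 3 or papain+MSC-Exos library 2, and turned to 0.15 in TPM.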

How the data were processed

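RNA from 9 nasal mucosa libraries was sequenced, and the authors deposited 1 table of FPKM values for 21930 Ensembl identifiers, of which 21817 had a symbol. The submitters' processing notes name fastp 0.19.4, HISAT2, StringTie and the mm10 build; for annotation, strand setting and the other versions nothing is given in the sources used here. Values were scaled by median of ratios and tested as log2(FPKM + 1) with limma 3.58.1 (R 4.3.3): trend, all 9 libraries in 1 fit (6 residual degrees of freedom), FPKM at least 1 in at least 3 libraries, Benjamini-Hochberg adjusted p under 0.05. The test was tried on simulated independent normal values without shifts in the share of the abundant genes. That trial does not speak to the choice of scaling. FPKM as deposited was tested alike. Depth is unknown: with the best value of 1 read, 18.5 to 24.6% of low FPKM came within 0.05 of whole reads, where even spread gives 10%, so no count test was run. Libraries of 1 group had Spearman correlations of 0.959 to 0.983, and those of different groups 0.917 to 0.956. Coordinates came from GENCODE M21 (GRCm38, the same build as mm10).

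The members, the lists and the scaling were chosen with earlier results of these data known. Named were all 10 clock genes, up to 3 called genes of smallest p per list and comparison, and the 3 nearest profiles to Arntl and to Dbp; Thra, Sphk2 and Tsc22d3 were added after their values were seen. Some genes of the list of partners are counted but not reported here. Alternatives were values as deposited, TPM, quantile normalization, a pseudocount of 0.1, a filter at 5 FPKM and none, fits of 2 groups, a replicate block and each library left out.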

Additional observations from a re-analysis of the deposited data

How the results depend on the processing

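The scaling changed the most calls. As deposited, genes called higher and lower numbered 8022 and 93 (exosomes against papain), 383 and 66 (papain against control) and 10736 and 67 (exosomes against control), with clock genes 4 higher and 1 lower in the first and 6 higher in the last. In TPM they numbered 10654 and 50, 277 and 52, and 12776 and 31, with clock genes 7 and 0, and 6 and 0. At a filter of 5 FPKM, 971 genes were higher in exosomes against papain, 474 higher and 300 lower in papain against control, and 973 higher in exosomes against control. Signs turned as deposited for exosomes against papain in Clock (0.36), Per1 (0.42), Per2 (0.45), Per3 (0.32) and Cry1 (0.59), for papain against control in Per3 (0.075), Cry2 (0.15) and Nr1d2 (0.14), and for exosomes against control in Clock (0.63), Per1 (0.20), Per2 (0.66) and Per3 (0.40). In TPM they turned for exosomes against papain in Clock (0.71), Per1 (0.78), Per2 (0.82), Per3 (0.67), Cry1 (0.97) and Nr1d2 (0.076), for papain against control in Per3 (0.16), Cry2 (0.24) and Nr1d2 (0.23), and for exosomes against control in Clock (1.08), Per1 (0.64), Per2 (1.12), Per3 (0.83) and Nr1d2 (0.31), and the TPM changes of Dbp (-0.29 against papain, -0.38 against control) and Nr1d1 (-0.13 and -0.51) missed the threshold. Over alternatives and left-out libraries, the adjusted p of exosomes against papain ran from 0.00261 to 0.386 for Dbp, 0.00333 to 0.694 for Nr1d1, 0.00167 to 0.823 for Nr1d2 and 0.000188 to 0.0429 for Cry2. Leaving out 1 library gave 726 to 1677 genes higher and 1031 to 2212 lower in exosomes against papain, 351 to 769 and 202 to 616 in papain against control (0 to 1 clock gene lower), and 605 to 1690 and 881 to 2083 in exosomes against control (0 to 3 clock genes higher); as deposited, 4819 to 9529 genes higher, 1 to 6 clock genes higher and 1 to 2 lower in exosomes against papain, and 150 to 1624 higher and 34 to 141 lower in papain against control. It ended no scaled call of Dbp, Nr1d1 or Nr1d2. Signs turned for papain against control in Per2 (-0.086 to 0.10), Clock (-0.0011 to 0.17) and, as deposited, Per1 (-0.53 to 0.029), and for exosomes against papain in Per1 (-0.29 to 0.041) and Cry1 (-0.085 to 0.044). Equal replicate numbers were not shown to pair libraries (correlations of -0.338 to 0.144 for equal and -0.423 to 0.413 for other numbers); with a replicate block genes numbered 1371 higher and 1712 lower, 554 and 357, and 1186 and 1536, and no clock gene changed its call. The cause of these shifts was not tested.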

Other observations

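The genes whose scaled profile over the 9 libraries lay nearest to Dbp were Rnase1, a secreted ribonuclease (root mean square distance 0.164 on the log2 scale, among 12507 genes), Cldn10, a claudin of tight junctions (0.17), and Sec11c, a subunit of the signal peptidase of secretory cells (0.214); the profile of Dbp itself had a root mean square of 0.775. Their scaled log2 changes in papain+MSC-Exos against papain were -1.30, -1.26 and -1.11, a direction that the choice by likeness to Dbp fixes, so no test is given; in TPM the changes were -0.47, -0.23 and -0.03. Nearest to Arntl, whose own profile had a root mean square of 0.199, were Fyn, a Src-family kinase (0.0598), Tmem229b, a membrane protein gene (0.0651), and Rcor1, a corepressor (0.0679), with scaled log2 changes of 0.26, 0.31 and 0.28 in papain+MSC-Exos against control and 0.96, 0.90 and 1.05 as deposited. These too were chosen by their likeness and are given no test.

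Temperature also shifts clocks, and all 15 genes of a temperature and heat shock list were tested on scaled values. In papain+MSC-Exos against papain 5 fell and 2 rose, in papain against control 0 fell and 1 rose, and in papain+MSC-Exos against control 2 fell and 1 rose, with medians of -0.08, 0.13 and 0.19; over all genes 16.2% were lower and 13.4% higher, then 4.15% and 5.77%, then 15.6% and 12.3%. As deposited 9, 0 and 14 rose and 0 fell, where 63.0%, 3.01% and 84.3% of all genes were higher. Hsp90ab1, a chaperone, rose with exosomes against papain (0.47, adjusted p = 0.0099) and against control (0.44, adjusted p = 0.0129; 0.0508 without control library 3). Dnaja1, a co-chaperone, fell in both (-0.47, adjusted p = 0.0127, and -0.48, adjusted p = 0.0129; 0.0504 without control library 1), and its signs turned as deposited (0.22 and 0.45). Hspe1, a mitochondrial chaperonin, fell against papain (-0.59, adjusted p = 0.0106) and turned to 0.11 as deposited; against control it fell (-0.41, adjusted p = 0.04), turned to 0.52 as deposited, and lost the call in 5 of 9 fits that left out 1 library, those without control library 1 or 3, papain library 3 or papain+MSC-Exos library 1 or 2. Hspa1b, an inducible chaperone, rose in papain against control (0.46, adjusted p = 0.0313), and the call was lost in the fits that left out control library 2, control library 3, papain library 1 or papain library 2, and also as deposited (0.58, adjusted p = 0.122).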
